A study of Mus musculus with 84 samples.

Results

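The postsynaptic density scaffold genes examined here are 9 genes taken by name: Dlg1, Dlg2, Dlg3, Dlg4, Shank1, Shank2, Shank3, Dlgap1 and Dlgap3. They are 9 of the 55401 gene IDs in the count files. RNA had been sequenced from NeuN+ nuclei, which are nuclei sorted for a protein of neuronal nuclei, from the frontal cortex of 129S6/SvEvTac mice aged 12 weeks. A vehicle group was compared with mice taken 24 h, 48 h or 7 days after an injection of DOI (2,5-dimethoxy-4-iodoamphetamine), a psychedelic agonist of serotonin receptors. Each group held 4 mice with 2 libraries per mouse, so the data are 16 mice and 32 libraries. The labels used here give no sex, no dose and no sampling time for the vehicle mice, and the comparison asks how long after the injection the RNA of these scaffolds differed.

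The postsynaptic density is a protein mesh under the membrane of excitatory synapses, and most excitatory synapses of the cortex sit on dendritic spines that contain it. The Dlg genes encode membrane-associated guanylate kinases (MAGUKs), which hold glutamate receptors and adhesion proteins with their PDZ domains. The Dlgap genes encode linkers that bind the guanylate kinase-like domain of the MAGUKs on one side and Shank proteins on the other. The Shank genes encode the deep layer of the mesh, which reaches Homer proteins and the actin cytoskeleton.

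All 9 genes were measured in every mouse, with 26 counts or more, and all 9 passed the filter on low counts. At 24 h and at 48 h after DOI, Dlg2, Dlg4 and Shank2 were higher than in vehicle mice, and Dlg3 and Shank1 were lower. The changes lay between 1.72-fold and 2.70-fold. Genes of the same family thus moved in opposite directions: Shank1 against Shank2, and Dlg3 against Dlg4 and Dlg2. At 7 days no scaffold gene passed the test, and the 4 mice of that group differed widely among themselves for the genes that had changed at 24 h. Levels below are CPM, counts scaled with TMM factors to a common total, and "passed" means an edgeR quasi-likelihood p, adjusted by Benjamini-Hochberg over 17941 genes, below 0.05.

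The vehicle mice were sequenced more deeply, with 9151680 to 11517452 counts each, than the 24 h mice (6441396 to 8090559) and the 48 h mice (5834248 to 7344355), while the 7 days mice ranged from 6972577 to 12354785. A count of 3, the smallest level the depth could show, was 0.254 to 0.502 CPM, and this covers counting error only. The annotated ribosomal RNA gene Rn18s-rs5 took 0.00694% to 0.0101% of counts in vehicle mice, 0.328% to 1.57% at 24 h and 0.523% to 1.66% at 48 h. These ranges do not overlap, so from the mice of those 2 groups and the vehicle mice alone, ribosomal RNA share and treatment cannot be told apart. At 7 days the share was 0.00835%, 0.633%, 0.00607% and 0.474% in mice 1 to 4. The neuronal markers Rbfox3, Snap25 and Syt1 summed to 4932 to 5340 CPM in vehicle mice and 3182 to 5220 CPM in the DOI groups, and 2 of the 3 passed at 24 h and at 48 h, 1 higher and 1 lower each time, where 24.2% and 30.1% of all genes passed. The inhibitory neuron markers Gad1, Gad2 and Slc32a1 summed to 749 to 1014 CPM in vehicle mice, 434 to 646 CPM at 24 h, with no overlap, and 405 to 808 CPM at 48 h, and 3 of 3 passed at 24 h (1 higher, 2 lower) and 2 of 3 at 48 h (1 higher, 1 lower), beside the same shares of all genes. The 5 excitatory neuron markers summed to 281 to 331 CPM in vehicle mice and 254 to 317 CPM at 24 h, and 1 passed, higher. The part of these markers in the scaffold values was not tested. Markers of other cell types were present too: over the 16 mice the 5 oligodendrocyte markers summed to 147.5 to 341 CPM, the 5 astrocyte markers to 62.8 to 198 CPM, the 6 microglia markers to 49.6 to 142.5 CPM, the 2 oligodendrocyte precursor markers to 5.52 to 18.5 CPM and the 3 endothelial markers to at most 5.03 CPM. For each of these lists the 24 h and 48 h ranges overlapped the vehicle range. At 7 days mice 2 and 4 lay below the vehicle range for astrocyte markers (89.9 and 62.8 CPM, vehicle 119 to 157 CPM). They did so for microglia markers too (73.2 and 53.6 CPM, vehicle 83.5 to 122 CPM). Mice 1 and 3 lay inside or above these ranges. Of the genes of the lists, 1 of 2 precursor markers passed higher at 24 h and at 48 h and 1 of 5 oligodendrocyte markers passed lower at 24 h. No astrocyte or microglia marker that was tested passed at these times, and no endothelial marker passed the filter on low counts. The libraries are bulk RNA of sorted nuclei, in which fewer nuclei of a type and less RNA per nucleus cannot be told apart.

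Dlg4 encodes PSD-95, the major scaffold of mature excitatory synapses. It is the shortest of the 9 genes (ENSMUSG00000020886, chr11:70016942-70047522, GRCm38), and 43.3% of its span of 30.6 kb is exonic. Dlg3 encodes SAP102, a MAGUK known for its high level in young synapses (ENSMUSG00000000881, chrX:100767722-100818410). The windows before the annotated starts of this pair are shown because these MAGUK genes moved in opposite directions. Each is 250 bases long, from the RefSeq promoter table for GRCm38.p6, on the forward strand and printed 5′ to 3′. Capitals mark matches on either strand to the GC box, whose letters are GGGCGG, or to the CCAAT box, which is named by its letters.

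Dlg4, start 1, chr11:70016953-70017202: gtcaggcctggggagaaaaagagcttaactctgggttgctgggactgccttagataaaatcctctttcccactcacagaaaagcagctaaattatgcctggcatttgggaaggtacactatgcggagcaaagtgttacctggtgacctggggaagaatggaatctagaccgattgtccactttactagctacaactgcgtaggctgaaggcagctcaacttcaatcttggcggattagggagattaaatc
Dlg4, start 2, chr11:70018355-70018604: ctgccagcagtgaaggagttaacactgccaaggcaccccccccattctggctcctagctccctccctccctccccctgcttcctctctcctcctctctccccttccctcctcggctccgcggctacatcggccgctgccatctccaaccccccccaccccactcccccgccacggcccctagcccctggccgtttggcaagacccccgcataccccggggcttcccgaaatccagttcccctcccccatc
Dlg4, start 3, chr11:70023732-70023981: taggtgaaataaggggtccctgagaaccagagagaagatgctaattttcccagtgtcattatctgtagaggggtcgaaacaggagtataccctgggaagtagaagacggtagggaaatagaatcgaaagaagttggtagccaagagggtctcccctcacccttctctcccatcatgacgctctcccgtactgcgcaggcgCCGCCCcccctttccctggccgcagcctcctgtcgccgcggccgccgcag
Dlg3, start 1, chrX:100774245-100774494: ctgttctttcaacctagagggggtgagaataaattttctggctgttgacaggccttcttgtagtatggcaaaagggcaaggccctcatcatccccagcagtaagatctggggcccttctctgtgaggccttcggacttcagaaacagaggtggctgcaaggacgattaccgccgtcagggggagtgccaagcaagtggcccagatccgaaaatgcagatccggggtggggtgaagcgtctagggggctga
Dlg3, start 2, chrX:100777021-100777270: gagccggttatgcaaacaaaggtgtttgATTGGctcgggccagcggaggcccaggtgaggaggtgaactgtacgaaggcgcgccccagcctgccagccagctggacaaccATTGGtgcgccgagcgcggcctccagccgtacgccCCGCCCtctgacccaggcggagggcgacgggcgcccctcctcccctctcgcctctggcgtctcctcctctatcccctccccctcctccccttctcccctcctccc

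For comparison, the median of 32851 such windows was 52.4% GC with 6 CpG. The windows of Dlg4 held 47.2%, 68.0% and 56.8% GC with 4, 11 and 14 CpG. Those of Dlg3 held 55.2% and 69.2% GC with 7 and 19 CpG. Also searched on both strands were TGACGTCA, the cAMP response element, and GCGTGGGCG, the EGR site, which can overlap a GC box. The E-box was searched as CACGTG. The AP-1 site of the search was spelled TGANTCA. For the TATA box the letters were TATAAA. Neither gene had any of these 5 motifs in the printed windows. Of all windows, 1.55% held the cAMP response element, 0.536% the EGR site, 6.02% the E-box, 6.75% the AP-1 site, 12.4% the TATA box, 32.7% the GC box and 33.8% the CCAAT box. Dlg4 start 3 and Dlg3 start 2 each held a GC box, a motif found in 32.7% of all windows. Dlg3 start 2 also held 2 CCAAT boxes, a motif found in 33.8% of all windows, and the Dlg4 windows held no CCAAT box. The table had starts for 7 of the 9 genes.

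Dlg4 rose at 24 h and 48 h. Its levels were 24.7, 27.9, 29.9 and 29.9 CPM in the vehicle mice and 41.0, 59.4, 58.1 and 64.2 CPM in the 24 h mice. At 48 h they were 54.0, 81.4, 58.0 and 55.8 CPM. Every mouse of these DOI groups lay above every vehicle mouse. The rise was 1.98-fold at 24 h (log2 fold change 0.99 ± 0.28 SE, edgeR adjusted p = 0.0178) and 2.22-fold at 48 h (1.15 ± 0.28, edgeR adjusted p = 0.00704).

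Dlg4 also had the smallest adjusted p of the 9 genes at 7 days. Levels there were 39.5, 76.1, 31.5 and 95.0 CPM in mice 1 to 4, so that mouse 4 stood above all 24 h and 48 h mice and mouse 2 above all but 1, while mice 1 and 3 stood lower, though above the vehicle mice. The log2 fold change was 1.11 ± 0.28 (edgeR adjusted p = 0.0960), which did not pass. Without 7 days mouse 1 the same test gave an adjusted p of 0.0133, without mouse 3 0.00981, and without mouse 4 0.372. DESeq2 on the same counts gave 0.0114 and limma voom 0.290.

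Dlg3 fell at both early times. The vehicle mice held 57.8, 60.2, 64.5 and 56.5 CPM, a narrow range. The 24 h mice held 31.1, 32.7, 28.9 and 31.5 CPM, narrower still, and the 48 h mice held 31.1, 34.7, 23.6 and 46.1 CPM. Neither DOI group overlapped the vehicle group. Dlg3 was 1.92-fold lower at 24 h (log2 fold change -0.94 ± 0.27, edgeR adjusted p = 0.0179) and 1.76-fold lower at 48 h (-0.82 ± 0.27, edgeR adjusted p = 0.0285). The 48 h call missed the threshold when any of 6 mice was left out, with edgeR adjusted p of 0.0536, 0.0594 and 0.0616 without vehicle mouse 1, 2 or 3 and 0.0624, 0.0578 and 0.0901 without 48 h mouse 1, 2 or 3. At 7 days the levels of mice 1 to 4 were 71.9, 24.0, 59.7 and 37.5 CPM, with mice 1 and 3 at or above the vehicle level and mice 2 and 4 below it (log2 fold change -0.31 ± 0.26, edgeR adjusted p = 0.585).

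Dlg2 encodes PSD-93, the close relative of PSD-95, and spans 1972.6 kb (ENSMUSG00000052572, chr7:90476672-92449247). It rose after DOI. Vehicle mice held 116, 102, 119 and 137 CPM, 24 h mice 148, 234, 190 and 242 CPM and 48 h mice 266, 175, 238 and 204 CPM. The lowest DOI mouse at these times was above the highest vehicle mouse. The rise was 1.72-fold at 24 h (log2 fold change 0.78 ± 0.24, edgeR adjusted p = 0.0262) and 1.87-fold at 48 h (0.90 ± 0.24, edgeR adjusted p = 0.0112). At 7 days mice 1 to 4 held 103, 182, 130 and 253 CPM, which overlapped the vehicle group (log2 fold change 0.49 ± 0.24, edgeR adjusted p = 0.304). The 24 h call is the least stable of the 5: edgeR adjusted p was 0.0653, 0.0787 and 0.0566 without vehicle mouse 1, 2 or 3, and 0.0677 and 0.0812 without 24 h mouse 2 or 4.

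Dlg1 encodes SAP97, a MAGUK linked to the delivery of AMPA receptors (ENSMUSG00000022770, chr16:31663443-31875129). The vehicle range of 259 to 345 CPM overlapped that of each DOI group: the 24 h mice held 200 to 276 CPM, the 48 h mice 233 to 270 CPM and the 7 days mice 239 to 294 CPM. In time order the log2 fold changes were -0.42 ± 0.15, -0.27 ± 0.15 and -0.21 ± 0.15, with edgeR adjusted p of 0.0551, 0.184 and 0.506. The 24 h value sits at the threshold. It passed with DESeq2 (adjusted p = 0.0266), with limma voom (0.000931), with library 2 of each mouse alone (0.0216 in edgeR) and without 24 h mouse 1 (0.0260 in edgeR). It did not pass with library 1 of each mouse alone (log2 fold change -0.27, edgeR adjusted p = 0.235, against -0.52 with library 2) or without vehicle mouse 4 (edgeR adjusted p = 0.149). Over all settings tried the adjusted p ranged from 0.000931 to 0.540.

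**Figure D1:**
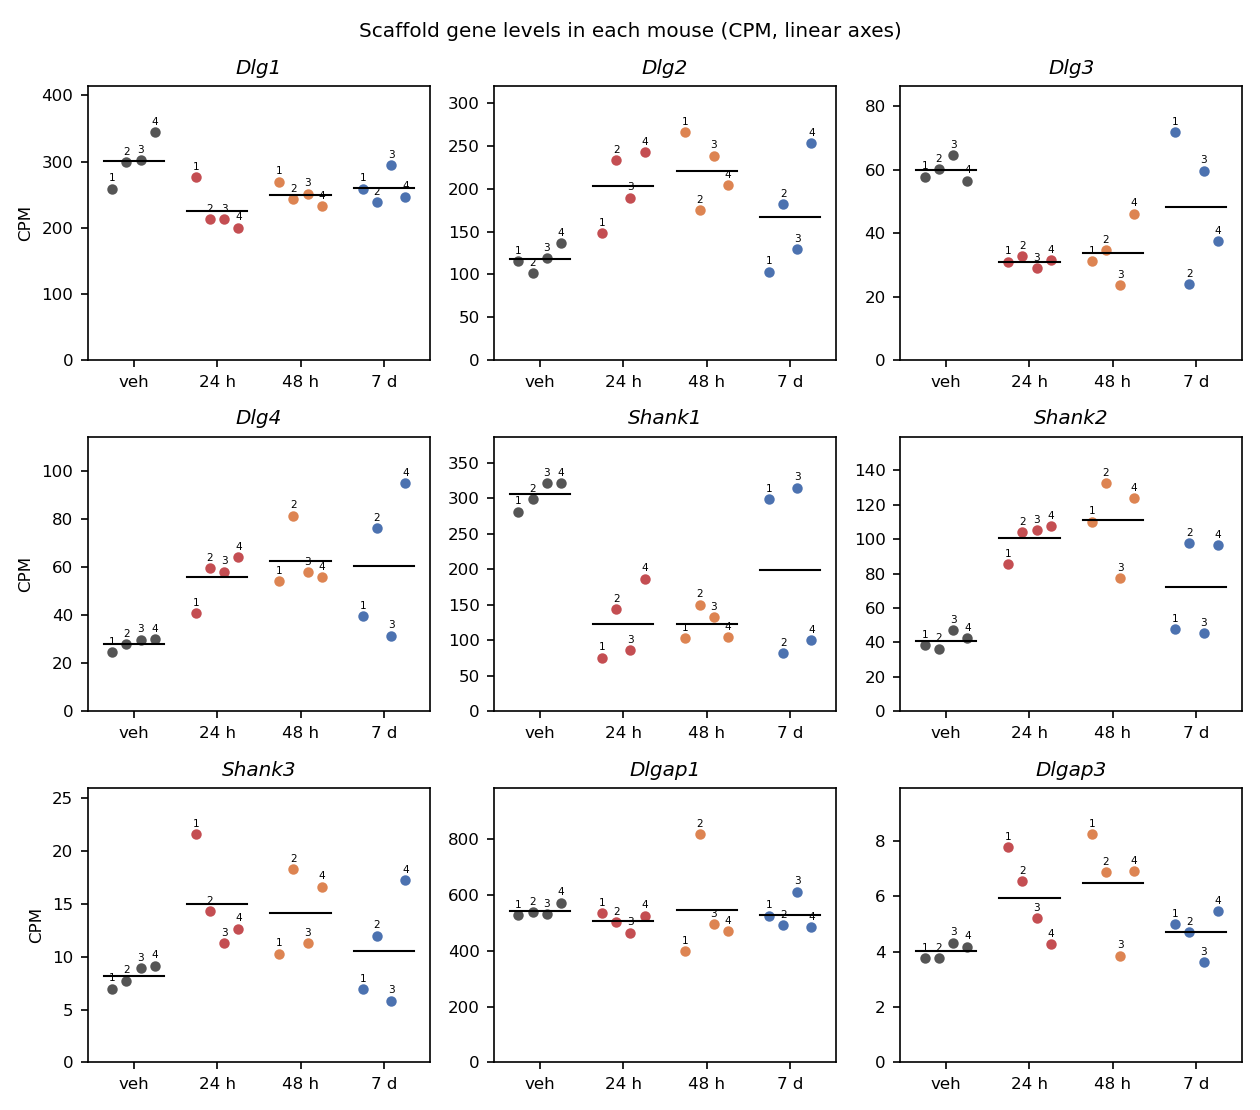
Each panel plots 1 gene, with the level in CPM on a linear axis that starts at 0 and the 4 groups along the horizontal axis; points are mice with their number and bars are group means. Shank1 and Dlg3 are lower and Shank2, Dlg2 and Dlg4 higher in all 24 h and 48 h mice than in all vehicle mice, and at 7 days mice 2 and 4 stand apart from mice 1 and 3.

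Shank1 had the largest fall of the 9 genes. It encodes a Shank protein enriched in spines of cortical and hippocampal neurons (ENSMUSG00000038738, chr7:44310253-44360572), and 3.22% of its exon bases are shared with the opposite-strand gene 1700008O03Rik. Vehicle mice held 281, 299, 321 and 322 CPM. The 24 h mice held 75.7, 144, 85.8 and 187 CPM and the 48 h mice 103, 151, 133 and 104 CPM. The highest of these 8 DOI mice, at 187 CPM, lay far under the lowest vehicle mouse. Shank1 was 2.48-fold lower at 24 h (log2 fold change -1.31 ± 0.37, edgeR adjusted p = 0.0167) and 2.49-fold lower at 48 h (-1.32 ± 0.37, edgeR adjusted p = 0.0135). The 24 h call was lost without the 2 mice with the fewest detected genes, 24 h mouse 1 and 48 h mouse 1 (-1.14, edgeR adjusted p = 0.0559).

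At 7 days the Shank1 levels of mice 1 to 4 were 299, 82.1, 315 and 100.0 CPM. Mice 1 and 3 were inside the vehicle range and mice 2 and 4 inside the range of the 24 h mice, with nothing in between. The group's log2 fold change of -0.62 ± 0.36 (edgeR adjusted p = 0.406) is the mean of these separate levels and describes none of the 4 mice.

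Shank2 moved the other way and had the smallest adjusted p of the 9 genes at 24 h and 48 h. It encodes a Shank protein found in many excitatory synapses (ENSMUSG00000037541, chr7:144001928-144424494). Vehicle mice held 38.5, 36.4, 47.1 and 42.3 CPM, 24 h mice 85.3, 104, 105 and 108 CPM, and 48 h mice 110, 133, 77.2 and 124 CPM. No DOI mouse of these times came near the vehicle range. The rise was 2.44-fold at 24 h (log2 fold change 1.29 ± 0.25, edgeR adjusted p = 0.00315) and 2.70-fold at 48 h (1.43 ± 0.25, edgeR adjusted p = 0.00170). At 7 days mice 1 to 4 held 47.9, 97.7, 45.5 and 96.7 CPM (log2 fold change 0.81 ± 0.24, edgeR adjusted p = 0.122), with mice 1 and 3 near the top of the vehicle range and mice 2 and 4 inside the 24 h range. The 7 days value passed without mouse 1 (edgeR adjusted p = 0.0238), without mouse 3 (0.0235) and with DESeq2 (0.0413).

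Shank3, whose loss causes a neurodevelopmental syndrome in people, was measured at a much lower level (ENSMUSG00000022623, chr15:89499623-89560261). Its exons share 2.93% of their bases with the opposite-strand gene Gm15609. Vehicle mice held 6.99, 7.73, 8.94 and 9.15 CPM, 24 h mice 21.6, 14.3, 11.3 and 12.7 CPM, and 48 h mice 10.3, 18.2, 11.3 and 16.6 CPM. All 8 DOI mice were above the vehicle mice, yet neither difference passed the test over all genes. The log2 fold change was 0.86 ± 0.33 at 24 h (edgeR adjusted p = 0.0650) and 0.78 ± 0.33 at 48 h (edgeR adjusted p = 0.0830). A fit of the compared groups alone gave edgeR adjusted p of 0.0169 and 0.0257. At 7 days the mice held 6.94, 12.0, 5.84 and 17.2 CPM (log2 fold change 0.35 ± 0.33, edgeR adjusted p = 0.624).

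Of the linkers, Dlgap1 had the smallest fold changes of the 9 genes. It encodes SAPAP1, also called GKAP, which ties PSD-95 to Shank (ENSMUSG00000003279, chr17:69969073-70821413). Vehicle mice held 528 to 572 CPM, 24 h mice 465 to 534 CPM and 7 days mice 486 to 612 CPM. At 48 h mouse 2 held 819 CPM and the other 3 mice 398 to 496 CPM. The log2 fold changes were -0.10 ± 0.19, 0.01 ± 0.19 and -0.04 ± 0.19 at 24 h, 48 h and 7 days (edgeR adjusted p = 0.736, 0.975 and 0.943). The sign changed with the processing at each time. Without 48 h mouse 2 the 48 h value was -0.25 (edgeR adjusted p = 0.250).

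Dlgap3, which encodes SAPAP3, a linker known for its role in striatal synapses, was the lowest member in CPM (ENSMUSG00000042388, chr4:127169204-127237022). Vehicle mice held 3.75 to 4.32 CPM, 24 h mice 4.26 to 7.77 CPM, 48 h mice 3.85 to 8.26 CPM and 7 days mice 3.62 to 5.46 CPM, and each DOI range overlapped the vehicle range. The log2 fold changes were 0.56 ± 0.32, 0.69 ± 0.33 and 0.23 ± 0.32 (edgeR adjusted p = 0.210, 0.113 and 0.755). Since the gene is strongly expressed in the striatum, 7 striatal projection neuron markers (Drd1, Drd2, Adora2a, Ppp1r1b, Penk, Tac1 and Pde10a) are given beside it. They summed to 336 to 437 CPM in vehicle mice, 255.0 to 334 CPM at 24 h and 345 to 640.4 CPM at 48 h. At 7 days mice 1 to 4 held 664, 1792, 414 and 1293 CPM. None of the 7 was at 0 in all mice, and 2 of the 6 that were tested passed at 24 h, both lower, where 10.4% of all genes passed lower. Their part in the Dlgap3 values was not tested.

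Counted over the list, 5 of 9 scaffold genes passed at 24 h, where 24.2% of all 17941 genes tested passed. They were 3 higher, against 13.8% of all genes, and 2 lower, against 10.4%. The 4 DOI mice did not overlap the 4 vehicle mice for 6 of the 9 genes at 24 h, against 35.7% of all genes. At 48 h the counts were again 5 of 9 passing (30.1% of all genes), 3 higher (16.8%), 2 lower (13.3%) and 6 without overlap (38.1%). The same vehicle mice serve both comparisons. The median log2 fold change without its sign was 0.86 over the 9 genes against 0.56 over all genes at 24 h. At 48 h these medians were 0.82 and 0.61, and the 7 days values were 0.35 and 0.34. Dlg2 and Dlg4 missed the threshold at 24 h without vehicle mouse 1 and without 24 h mouse 4, which left 3 genes in each case.

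At 7 days 0 of 9 genes passed in edgeR, as did 0% of all genes. Unadjusted p was under 0.05 for 2 genes, Dlg4 and Shank2, and for 16.8% of all genes. DESeq2 called 2 of 9, and 4.44% of all genes, and limma voom called 0 of 9 and 0% of all genes. Dlg4 was the 1 gene whose 7 days mice all lay above the vehicle mice, against 5.85% of all genes without overlap. Leaving out 7 days mouse 1 or mouse 3 raised the edgeR count to 2.

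**Figure D2:**
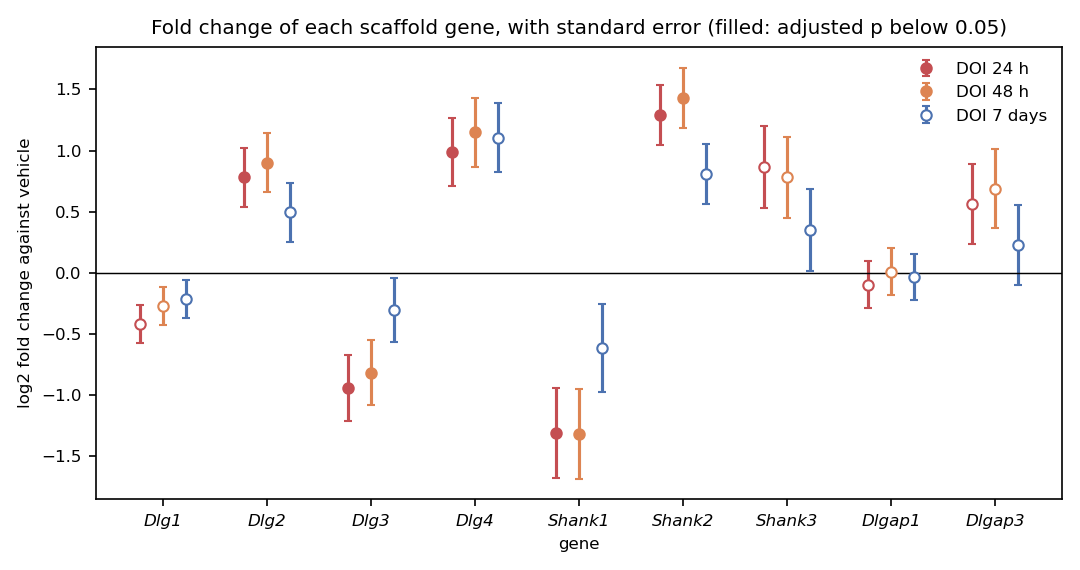
The log2 fold change against vehicle (vertical axis) is plotted for each scaffold gene (horizontal axis) at the 3 times, as points with their standard error, filled where the edgeR adjusted p is below 0.05. Shank1 and Shank2 mark the extremes at 24 h, at -1.31 and 1.29, and all 7 days points are open.

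No difference between DOI groups passed the test in any of the 9 genes. For 48 h against 24 h, 0 of 9 genes passed in edgeR (0% of all genes), 0 had an unadjusted p under 0.05 (1.88% of all genes), and DESeq2 and limma voom called 0. The log2 differences lay between -0.08 ± 0.33 for Shank3 and 0.16 ± 0.28 for Dlg4. For 7 days against 24 h, 0 of 9 passed (0.00557% of all genes), 1 had an unadjusted p under 0.05, as did 14.2% of all genes (Dlg3, log2 difference 0.64 ± 0.27, edgeR adjusted p = 0.286), and DESeq2 and limma voom called 0 (2.03% and 0.117% of all genes). For 7 days against 48 h, 0 of 9 passed (0% of all genes), 1 had an unadjusted p under 0.05, as did 16.5% of all genes (Shank2, -0.63 ± 0.24, edgeR adjusted p = 0.224), and DESeq2 and limma voom called 0 (2.42% and 0% of all genes). Tested jointly over the 4 groups, 5 of 9 genes passed in edgeR, against 18.8% of all genes: Dlg2, Dlg3, Dlg4, Shank1 and Shank2. That count fell to 1 without any single vehicle mouse, and to 3 without 24 h mouse 2, 3 or 4 or without 48 h mouse 1, 2 or 3.

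Because members of the Dlg and Shank families moved in opposite directions, the make-up of these families differed between groups. In the Dlgap pair neither gene passed at any time, and their ratio overlapped that of the vehicle mice at each time. Levels can be set side by side between genes only per length, so CPM was divided by the summed exon length in kb, which counts the exons of all annotated isoforms. That length is 13251 bases for Dlg4 and 5844 bases for Dlg3, so their distance below depends on the annotation too. In CPM alone their vehicle means were 28.1 and 59.8. In vehicle mice Dlgap1 (30.3 ± 1.15 CPM per kb, SD, n = 4), Shank1 (29.1 ± 1.85) and Dlg1 (28.1 ± 3.27) were the highest, and their ranges over mice overlapped. Dlg3 (10.2 ± 0.603), Dlg2 (6.63 ± 0.803), Shank2 (3.69 ± 0.421) and Dlg4 (2.12 ± 0.183) followed without overlap between neighbours. Shank3 (0.888 ± 0.111) and Dlgap3 (0.887 ± 0.0637) came last and overlapped. At 24 h the order of the means was Dlgap1 (28.3 ± 1.74), Dlg1 (21.0 ± 3.20), Shank1 (11.7 ± 4.95), Dlg2 (11.4 ± 2.43), Shank2 (9.02 ± 0.918), Dlg3 (5.31 ± 0.273), Dlg4 (4.20 ± 0.764), Shank3 (1.62 ± 0.499) and Dlgap3 (1.32 ± 0.340). Shank1, Dlg2 and Shank2 overlapped there, whereas in vehicle mice Shank1 stood far above both.

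Of the summed CPM per kb of the 3 Shank genes, Shank1 held 86.4% ± 0.780 (SD, n = 4) in vehicle mice, 50.7% ± 9.61 at 24 h and 50.5% ± 7.46 at 48 h. Shank2 held 11.0% ± 0.748, 41.6% ± 7.28 and 43.0% ± 6.99. The summed level of the family was 33.6 ± 2.30 CPM per kb without DOI, 22.3 ± 5.34 after 24 h and 23.1 ± 3.51 after 48 h, so the sum was lower as well as differently divided. At 7 days the Shank1 share ran from 43.7% to 86.4%. Among the 4 Dlg genes the sum was nearer to even across groups: vehicle mice had 47.0 ± 3.93 CPM per kb, and the DOI groups had 41.9 ± 1.46, 46.1 ± 2.24 and 46.4 ± 3.55 in time order. Within it the Dlg3 share was 21.9% ± 2.13 in vehicle mice and 12.7% ± 0.260 at 24 h, and the Dlg4 share 4.51% ± 0.150 and 10.0% ± 1.87.

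**Figure D3:**
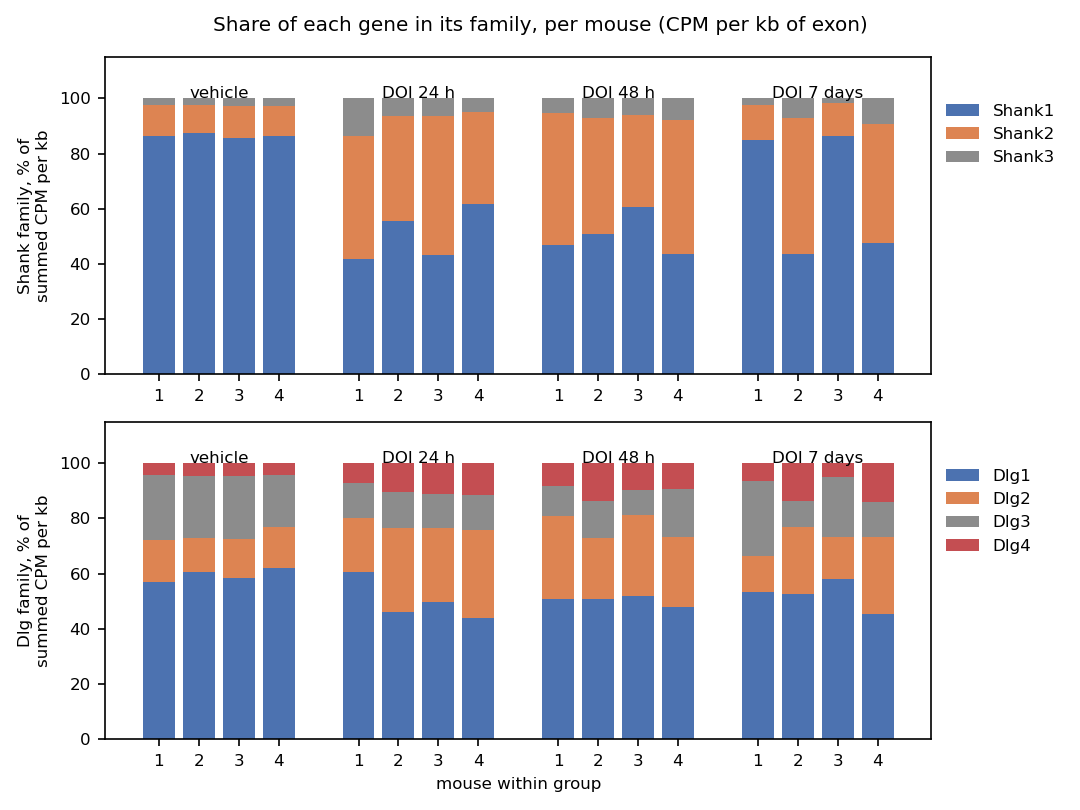
Stacked bars give, for each of the 16 mice (horizontal axis), the percentage of the family's summed CPM per kb of exon held by each Shank gene (upper panel) and each Dlg gene (lower panel). The Shank1 part shrinks from a mean of 86.4% in vehicle mice to 50.7% at 24 h, and at 7 days it was 84.9% and 86.4% in mice 1 and 3 and 43.7% and 47.4% in mice 2 and 4.

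The ratio of 2 genes within a mouse does not depend on how libraries are scaled. The Shank1 to Shank2 ratio of CPM was 7.30, 8.20, 6.82 and 7.60 in the vehicle mice. It was 0.888, 1.38, 0.818 and 1.74 in the 24 h mice and 0.932, 1.13, 1.72 and 0.844 in the 48 h mice. Its mean on the log2 scale was 6.50-fold lower at 24 h and 6.71-fold lower at 48 h. The Dlg4 to Dlg3 ratio was 0.428 to 0.528 in vehicle mice, 1.32 to 2.04 at 24 h and 1.21 to 2.46 at 48 h, a rise of 3.77-fold and 3.98-fold on the log2 mean. For the Shank1 to Shank3 ratio the log2 difference was -2.24 at 24 h and -2.08 at 48 h, and for the Dlg4 to Dlg1 ratio it was 1.39 and 1.40. In each of these 8 comparisons the 4 DOI mice and the 4 vehicle mice did not overlap. The exact two-sided permutation p was then 0.0286, the smallest that 4 mice against 4 can give, and 0.0545 after Benjamini-Hochberg adjustment over the 21 ratio tests computed, so none passed after adjustment. Except for Dlg4 to Dlg1, the genes of each pair had themselves moved in opposite directions without overlap at both times. Their ratios then could not overlap, so this p was fixed by the single-gene values and is no separate support. Dlg4 and Dlg2, which rose together, kept a nearer ratio, with a log2 difference of 0.21 at 24 h (exact permutation p = 0.114, adjusted 0.141) and 0.24 at 48 h (exact permutation p = 0.514, adjusted 0.514).

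At 7 days the Shank1 to Shank2 ratio was 6.24, 0.841, 6.92 and 1.03 in mice 1 to 4. The Rn18s-rs5 share of counts sorted these mice the same way: mice 2 and 4, with 0.633% and 0.474%, had the low ratios, and mice 1 and 3, with 0.00835% and 0.00607%, had ratios near the vehicle mice. The mitochondrial share sorted them likewise, at 0.130% and 0.114% in mice 2 and 4 and 0.0413% and 0.0210% in mice 1 and 3, and it was 0.0171% to 0.0701% in vehicle mice, 0.0621% to 0.101% at 24 h and 0.108% to 0.268% at 48 h. So did the summed striatal markers given above, at 1792 and 1293 CPM in mice 2 and 4 and 664 and 414 CPM in mice 1 and 3, although at 24 h that sum was below its vehicle range. In mice 2 and 4 the excitatory neuron markers summed to 198 and 229 CPM, against 340 and 264 CPM in mice 1 and 3. Astrocyte markers were at 89.9 and 62.8 against 189 and 133.5 CPM. For microglia markers the values were 73.2 and 53.6 against 142.5 and 128 CPM. Precursor markers sorted alike, at 7.62 and 9.79 against 13.5 and 10.9 CPM. The neuronal, inhibitory neuron, oligodendrocyte and endothelial sums did not sort the mice so. The part of these marker sums in the ratios was not tested. The Dlg4 to Dlg3 ratio at 7 days was 0.550, 3.17, 0.528 and 2.53 in mice 1 to 4. For a pair of ratios all 4 of the 7 days mice lay outside the vehicle range. The Dlg4 to Dlg1 ratio was 0.153, 0.319, 0.107 and 0.385, against 0.0866 to 0.0988 in vehicle mice. The Shank3 to Shank2 ratio was 0.145, 0.123, 0.128 and 0.178, against 0.181 to 0.216, and did not overlap at 48 h either. Each of these had an exact permutation p of 0.0286, or 0.0545 after adjustment over the 21 tests. Over all 16 mice the Rn18s-rs5 share was 0.328% or more in each mouse with a Shank1 to Shank2 ratio under 2, and at most 0.0101% in each mouse with a ratio above 6. With this share as a covariate 0 of 9 genes passed in edgeR at 24 h and at 48 h. The fold changes then kept their sign, with smaller size for Dlg2 (log2 0.06 ± 0.26 at 24 h and 0.04 ± 0.29 at 48 h) than for Shank1 (-1.15 ± 0.62 at 24 h) and Shank2 (1.05 ± 0.34 at 24 h), apart from Dlgap1, whose sign turned at 24 h. Treatment group accounted for 67.9% of the variance of the share, and the rest, which the fit uses to estimate its slope, lies between mice of the same group.

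**Figure D4:**
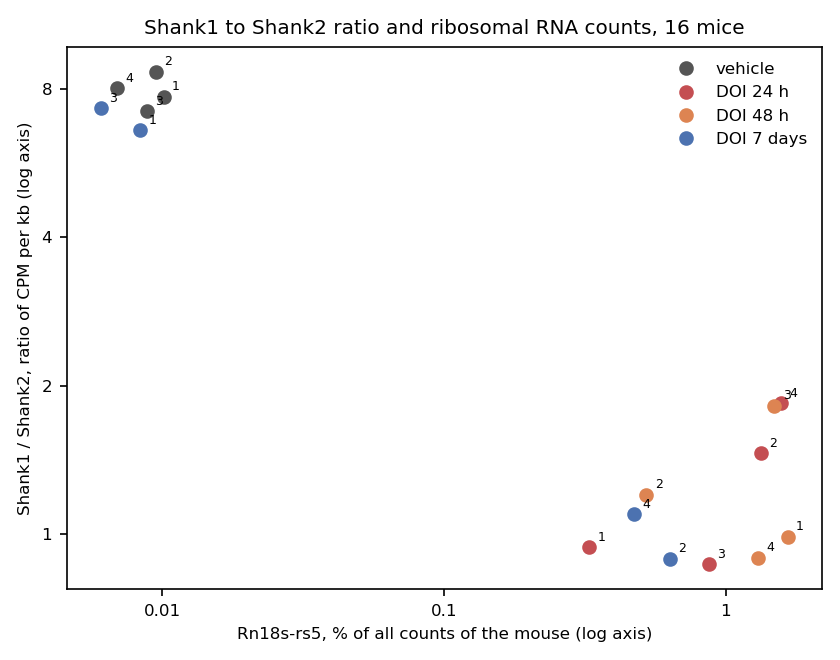
The Shank1 to Shank2 ratio of CPM per kb (vertical log axis) is plotted against the percentage of all counts taken by Rn18s-rs5 (horizontal log axis), 1 point per mouse with its number, coloured by group. Points form 2 separate clusters, with the 4 vehicle mice and 7 days mice 1 and 3 in the upper left and the other 10 mice in the lower right.

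The scaffolds bind a wider set of postsynaptic proteins, of which 34 genes are reported and 33 were tested. At 24 h 10 of 33 passed, 5 higher and 5 lower, which is 30.3% beside the 24.2% of all genes. At 48 h 12 of 33 passed, 7 higher and 5 lower, or 36.4% beside 30.1%, and this count was 7 without 48 h mouse 2. At 7 days 0 of 33 passed in edgeR, with 6 at an unadjusted p under 0.05 and 3 called by DESeq2, beside the 16.8% and 4.44% of all genes given above. The median log2 fold change of the list was 0.22 at 24 h and 0.14 at 48 h, and 0.03 and 0.02 over all genes.

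Iqsec1, an exchange factor for Arf GTPases, rose from 55.7 ± 7.07 CPM (SD, n = 4) to 138 ± 11.0 CPM at 24 h, and Begain, a guanylate kinase-associated protein, from 5.81 ± 0.825 to 13.6 ± 1.99 CPM. Magi1, an inverted MAGUK, rose from 135 ± 13.8 to 260.3 ± 52.4 CPM at 24 h (log2 fold change 0.95 ± 0.22, edgeR adjusted p = 0.00622). Cttn, the actin-binding cortactin that Shank recruits, rose from 62.1 ± 5.19 to 108 ± 14.7 CPM. Sharpin, a Shank-associated protein, rose from 10.8 ± 0.772 to 17.5 ± 2.59 CPM at 24 h.

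All 3 Lin7 genes, which encode small PDZ proteins that pair with Cask, fell at 24 h and at 48 h. Lin7c fell from 99.0 ± 14.6 to 46.0 ± 6.99 CPM at 24 h (log2 fold change -1.10 ± 0.22, edgeR adjusted p = 0.00356), and Lin7a from 73.9 ± 5.03 to 35.1 ± 7.96 CPM (-1.07 ± 0.23, edgeR adjusted p = 0.00488). Mpp3, a MAGUK of another branch, fell from 171 ± 31.5 to 81.5 ± 15.2 CPM (-1.07 ± 0.25, edgeR adjusted p = 0.00673). Pick1, a PDZ protein of AMPA receptor traffic, was the remaining gene that fell. Homer1, the partner that links Shank to metabotropic glutamate receptors, was 137 ± 19.7 CPM without DOI, 133 ± 16.1 after 24 h and 155 ± 8.54 after 48 h (log2 fold change -0.04 ± 0.19 and 0.17 ± 0.19, edgeR adjusted p = 0.884 and 0.514), counted over all its isoforms.

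**Figure D5:**
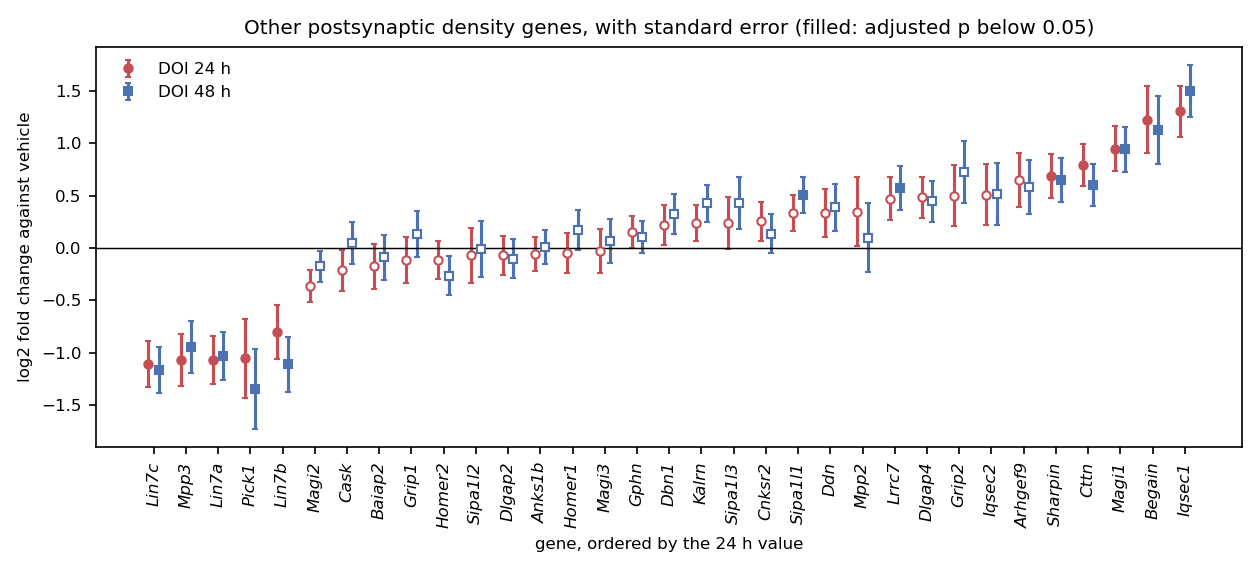
For the 33 other postsynaptic density genes tested (horizontal axis, ordered by the 24 h value), points give the log2 fold change against vehicle with its standard error at 24 h (circles) and 48 h (squares), filled where the edgeR adjusted p is below 0.05. Lin7c, Mpp3 and Lin7a are lowest and Begain and Iqsec1 are highest at 24 h, at 1.23 and 1.31.

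PSD-95 is held at the membrane by palmitate, which Zdhhc enzymes add and Abhd17 enzymes remove. Of 8 such genes, 3 passed at 24 h (2 higher, 1 lower) and 5 at 48 h (2 higher, 3 lower), which is 37.5% and 62.5% beside 24.2% and 30.1% of all genes. Zdhhc2, a transferase that acts on PSD-95 in dendrites, fell from 131 ± 13.4 CPM to 73.7 ± 4.65 at 24 h and 77.5 ± 12.0 at 48 h (log2 fold change -0.83 ± 0.18 and -0.75 ± 0.18, edgeR adjusted p = 0.00449 and 0.00555). Abhd17a, which removes palmitate, rose from 15.8 ± 2.38 CPM to 39.2 ± 3.91 and 41.5 ± 3.03 (log2 fold change 1.31 ± 0.23 and 1.39 ± 0.23, edgeR adjusted p = 0.00233 and 0.00158). The transferase gene Zdhhc7 rose at both times, with log2 fold changes of 0.91 ± 0.28 and 1.32 ± 0.28. Zdhhc15 and Zdhhc17 fell at 48 h, by 0.80 and 0.40 on the log2 scale. At 7 days 0 of the 8 passed in edgeR, with 4 at an unadjusted p under 0.05 (16.8% of all genes). Abhd17a had an edgeR adjusted p of 0.0960 there, and DESeq2 called 2 of the 13 genes that these 8 make with the 5 RNA-binding genes below.

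Of 5 RNA-binding proteins known to act on the Dlg4 message (Ptbp1, Ptbp2, Fmr1, Fxr1 and Fxr2), Fxr2, a relative of the fragile X protein, passed at both times, and 1 of 5 is 20.0%, below the share of all genes at each time. Its level was 9.04 ± 2.12 CPM without DOI, 21.1 ± 6.39 after 24 h and 21.0 ± 4.62 after 48 h (log2 fold change 1.22 ± 0.33 and 1.21 ± 0.33, edgeR adjusted p = 0.0148 and 0.0125). The count over these 5 and the 8 palmitoylation genes was 4 of 13 at 24 h (30.8%, beside 24.2% of all genes) and 6 of 13 at 48 h (46.2%, beside 30.1%). At 24 h it was 2 of 13 without vehicle mouse 1.

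Genes with a pattern over mice most like that of Dlg4 were sought among 8955 genes, by the root mean square difference of log2 CPM centred on its mean over the 16 mice. They were Gigyf1 (0.190), Scmh1 (0.209) and Ppp2r2a (0.213). Gigyf1 held 19.7 ± 3.08 CPM in vehicle mice and 38.2 ± 5.26, 46.2 ± 12.5 and 37.8 ± 18.3 CPM in the DOI groups in time order. For Shank1 the nearest were March1 (0.188), Actr5 (0.263) and Thap3 (0.308). March1, which encodes a ubiquitin ligase, held 104 ± 7.83 CPM in vehicle mice and then 41.5 ± 11.1, 41.3 ± 6.07 and 69.5 ± 38.4 CPM.

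Dlg4, Shank2 and Dlg2, which rose, span 30.6, 422.6 and 1972.6 kb, and Shank1 and Dlg3, which fell, span 50.3 and 50.7 kb. Dlgap1, with little difference, spans 852.3 kb. Over all tested protein-coding genes the share that passed higher grew with length. At 24 h it was 9.49% of 9044 genes up to 50 kb, 14.6% of 2000 genes of 50 to 100 kb, 15.1% of 1856 genes of 100 to 400 kb and 21.4% of 323 longer genes, while 13.5%, 13.2%, 8.62% and 7.43% passed lower. At 48 h 10.7%, 18.1%, 21.9% and 28.5% passed higher and 18.4%, 13.7%, 8.46% and 7.74% lower. Dlg2 and Shank2 rose in the longest class, and Dlg4 rose in the shortest. The part of length in these values was not tested. The median difference between the 2 libraries of a mouse was 1.04-fold for Dlgap1, 1.05-fold for Shank2, 1.08-fold for Shank1 and 1.09-fold for Dlg4, against 1.18-fold for Shank3 and 1.37-fold for Dlgap3, the genes with the fewest counts.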

How the data were processed

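RNA counts of 32 libraries from 16 mice were used, and the H3K27ac samples of the series were not analysed here. The unit is the raw read count of a gene, which the authors obtained with featureCounts 2.0.0 over exons of GRCm38 Ensembl IDs, per the file headers. The recorded command sets neither strand nor pairing, and leaves multi-mapping reads and overlaps at the defaults. Without strand, reads of a gene and of an antisense partner cannot be told apart. The submitters' processing notes also name Trim Galore 0.6.5 and the build mm10, and the RNA aligner is not given in the sources used here. For 3 mice (24 h mouse 1, 48 h mouse 2, 7 days mouse 2) the header carries mouse number 6, and the number of the label was used. Symbols were found for 55141 of 55401 IDs (99.5%).

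Both libraries of each mouse were added together. Genes were kept with filterByExpr, scaled with TMM and fitted with edgeR 4.0.16 (glmQLFit and glmQLFTest) over 4 groups, with Benjamini-Hochberg adjustment, a threshold of 0.05 and a prior count of 2 for log2 CPM. The standard error of a log2 fold change is its size over the square root of F. Ratios were compared with exact permutation tests. Also used were R 4.3.3, limma 3.58.1 and DESeq2 1.42.0, and the fit was tested on simulated data. Alternatives were other thresholds, scaling, filters, tools, single libraries, covariates, a replicate block and leaving out single mice. Added once the data had been seen were thinning to 5834248 counts per mouse, leaving out the 2 mice with the fewest detected genes (48 h mouse 1 and 24 h mouse 1), and leaving out the 3 mice with another header number.

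The 9 genes and all lists were chosen with earlier results of these data known. Named beside the 9 were Homer1, the 3 postsynaptic genes with the largest change in each direction at 24 h that passed without overlap, regulators that passed at 24 h or 48 h, and the 3 genes nearest in pattern to Dlg4 and to Shank1 among genes at 4 or more in mean log2 CPM. Cttn, Sharpin, Lin7b and Pick1 were named after their values were seen. Of the listed genes, 2 are not reported here and are in no list count. Promoter windows came from the RefSeq table.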

Additional observations from a re-analysis of the deposited data

Results flagged for a closer look

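Of 92 groups of 4 mice examined for a mouse far from the other 3 (a gap to the nearest mouse past the 95% critical value of Dixon's test for 4 values), 3 had one, and chance alone gives about 1 in 20, or 4.6 groups. Dlg1 at 24 h was 276 CPM in mouse 1 and 213 CPM in the nearest mouse. Dlg4 at 48 h was 81.4 CPM in mouse 2 and 58.0 CPM in the nearest. Shank2 at 24 h was 85.3 CPM in mouse 1 and 104 CPM in the nearest. The header numbers of 24 h mouse 1 and 48 h mouse 2 differ from their labels, and each had the lowest Rn18s-rs5 share of its group, 0.328% and 0.523%. Their part in these values was not tested.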

How the results depend on the processing

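The number of scaffold genes that passed at 24 h and 48 h, 5 each, was 5 to 7 and 5 to 7 under other scaling, filters, tools, single libraries and the replicate block. At 48 h with library 2 alone, the 5 genes were not the same. Dlg3 missed the threshold (edgeR adjusted p = 0.0557) and Dlgap3 passed (log2 fold change 1.18, edgeR adjusted p = 0.0346). At a threshold of 0.01 the number was 1 and 2, with the Rn18s-rs5 share as a covariate 0 and 0, and with the mitochondrial share 1 and 0. At 7 days it was 0, with 1 at a threshold of 0.1, 2 with DESeq2 and 2 with no filter. In the 4-group test the 5 became 1 at a threshold of 0.01, 0 with either share as a covariate, 2 without the 2 mice with the fewest detected genes and 2 with the replicate block. Same-numbered mice are different animals, and their deviations had a mean correlation of -0.0362 over 24 pairs (-0.282 to 0.244), so the block carries no pairing. With 1 mouse left out the counts were 3 to 6 at 24 h, 0 to 2 at 7 days and 1 to 5 in the 4-group test. For the 33 other postsynaptic genes, 24 h and 48 h counts were 5 and 5 at a threshold of 0.01, 0 and 0 with the Rn18s-rs5 covariate, 17 at 24 h with limma voom and 0 at 48 h with the mitochondrial covariate; at 7 days 3 passed with DESeq2 and 1 with no filter, and with 1 mouse left out 7 to 11 passed at 48 h and 0 to 2 at 7 days. For the 13 regulators they were 2 and 3 at a threshold of 0.01, 0 and 0 with the Rn18s-rs5 covariate, 7 at 24 h with limma voom and 0 at 48 h with the mitochondrial covariate. Their 7 days counts were 1 at a threshold of 0.1, 2 with DESeq2 and 1 with no filter, and with 1 mouse left out 2 to 5 passed at 24 h and 0 to 2 at 7 days. Dlgap1 was the 1 scaffold gene whose log2 fold change turned sign. At 24 h it was 0.0086 with total counts and 0.33 with the Rn18s-rs5 covariate. At 48 h it was -0.052 with no filter, -0.017 with the replicate block, -0.25 without the 3 mice with another header number and -0.25 to 0.12 with 1 mouse left out. At 7 days it was 0.015 with total counts, 0.0016 with library 1, 0.0068, 0.071 and 0.035 with detected genes, Rn18s-rs5 and mitochondrial share as covariates, and -0.11 to 0.0026 with 1 mouse left out. None of these Dlgap1 values passed the test, and the cause of these shifts was not tested. Ratios kept their direction in all 42 single-library values and all 168 values with 1 mouse left out. Dlgap3 and Shank3 had the fewest counts, with 26 to 59 and 50 to 142 per mouse. With counts thinned to the lowest total, the 24 h value of Shank3 passed (log2 fold change 0.95, edgeR adjusted p = 0.0407).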

Other observations

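The span of Dlg2 holds 22 other annotated features on the same strand, 21 of them with a single exon, and these were looked at after their values were seen. All 19 that were tested had a positive log2 fold change at 24 h, and 13 passed in edgeR at 24 h and 14 at 48 h, all higher, with medians of 1.46 and 1.78, above the 0.78 and 0.90 of Dlg2 itself. Over all genes 13.8% and 16.8% passed higher, with medians of 0.03 and 0.02. C030038I04Rik, at most 0.393 CPM in vehicle mice, and Gm44681, at 0.227 to 1.36 CPM, are among those counted at both times. They can have passed the filter on low counts only through DOI mice, in which they are higher, so their calls are no support. The summed level of the 19 tested features was 116, 135, 325 and 262 CPM in vehicle mice, 944, 655, 575 and 873 CPM at 24 h and 541, 1643, 1097 and 586 CPM at 48 h. At 7 days mice 1 to 4 held 157, 887, 260 and 1069 CPM. The highest at 24 h, Gm45183 (chr7:91304695-91306191), was at 17.5 ± 10.6 CPM without DOI (SD, n = 4) and at 224 ± 19.0 CPM after 24 h. Of these features, 2 share exon bases with Dlg2 (150 and 75 bases). Whether the counts come from transcripts of their own or from unspliced Dlg2 RNA was not tested.

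Inside the scaffold genes other than Dlg2, 5 opposite-strand genes were tested, and 3 passed higher at 24 h and at 48 h, where 13.8% and 16.8% of all genes did, while those in Dlg1 and Shank3 passed at neither time. Gm14372, inside Shank2 (chr7:144368048-144406933), held at most 0.292 CPM in vehicle mice, which is at the depth floor, 2.29 to 7.10 CPM at 24 h and 6.70 to 10.4 CPM at 48 h. It can have passed the filter on low counts only through DOI mice, in which it is high, so its call is no support. Inside Dlgap1, whose own level differed little, 5031415H12Rik rose from 1.69 ± 1.07 to 8.59 ± 1.29 CPM at 24 h (log2 fold change 2.33 ± 0.47, edgeR adjusted p = 0.00366) and AC079441.1 from 3.74 ± 0.819 to 10.2 ± 3.20 CPM (1.44 ± 0.39, edgeR adjusted p = 0.0141). The lowest vehicle value of 5031415H12Rik was 0.910 CPM. It too can have passed the filter on low counts only with the help of DOI mice, so its call is no support. AC079441.1 shares 92 exon bases with Dlgap1, and counting was without strand. On the same strand as Dlg1, whose own log2 fold change was negative, Gm49705 rose from 2.46 ± 0.641 CPM to 9.91 ± 2.67 CPM at 24 h and 12.8 ± 2.37 CPM at 48 h (edgeR adjusted p = 0.0194 and 0.00729).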
